A study of Bos taurus with 12 samples.

Results

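The comparison described here set high against low milk protein percentage in the lactating mammary gland of Chinese Holstein cows. Its members were 6 of the 12 libraries in the data set, 3 from cows with high milk protein percentage in lactation (HP1, HP2 and HP3) and 3 from cows with low milk protein percentage in lactation (LP1, LP2 and LP3), chosen by their labels. All 6 cows were multiparous, healthy and free of mastitis, were kept on one farm and were biopsied once near peak lactation, so that each library is a different animal. The other 6 libraries, from non-lactating cows of high (HD) and low (LD) milk protein, were used here only to ask whether a difference in lactation depended on stage. In the study's list of cows the HP animals also had the higher milk yield, so protein percentage and yield cannot be told apart in these libraries. The study states that the biopsies were not inspected visually, and in bulk tissue fewer cells of a type and less RNA per cell cannot be told apart.

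MicroRNAs (miRNAs) are short RNAs that guide Argonaute proteins to partly matching sites in messenger RNAs and lower their translation or stability. Target choice rests mainly on the seed near the 5′ end, so miRNAs with the same seed form a family. Many precursors lie side by side in the genome and are cut from one primary transcript, which makes them a cluster. Each precursor can give a miRNA from either arm, named -5p and -3p, and one arm usually dominates. Members of a cluster share their transcription but not the later steps of processing, loading and decay. Near-identical family members can share reads, so their separate values are less certain than the family sum.

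The deposited table held 388 mature miRNAs, each given in TPM (here RPM, the share of all reads counted on miRNAs, without length correction). The reads implied by the smallest step between values ranged from 6026620 in HP1 to 13373813 in LP1, and 3 reads correspond to 0.498 and 0.224 TPM in these libraries. Such limits cover counting error only. Values below are TPM divided by a size factor per library (normalised TPM), and fold changes are on the scale of log2(normalised TPM + 1), as LP over HP. The study's text and the names of its deposited columns do not give the same direction for this comparison. All directions here, miR-146b and miR-379 included, follow the column names, and would reverse if the names were exchanged. The study's alignment summary listed a lower mapped share for LP1 than for the other libraries, and results that change without LP1 are given with that change. Epithelial markers of the gland were all measured. The summed level of the 7 epithelial miRNAs ranged from 37048 to 43582 normalised TPM in HP and from 32254 to 57598 in LP. None of them was a differentially expressed (DE) miRNA, against 10.1% of all miRNAs.

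In total, 39 of 388 miRNAs were DE between HP and LP (10.1%), at an unadjusted p below 0.05 and an absolute log2 fold change above 0.8. Of these, 23 were higher in LP (5.93% of those tested) and 16 were lower (4.12%). The values of HP and LP did not overlap for 77 of the 388 miRNAs (19.8%), 40 higher in LP (10.3%) and 37 lower (9.54%). After Benjamini-Hochberg adjustment over all 388 miRNAs 1 passed 0.05 in the limma fit, miR-379. The study's own count test (DESeq2) gave adjusted p-values below 0.05 in lactation for others, miR-146b, miR-146a and miR-2478 among them. In the limma fit an unadjusted p below 0.05 was found for 61 miRNAs (15.7%), 30 higher in LP (7.73%) and 31 lower (7.99%). The median log2 fold change over all miRNAs was -0.01. Leaving out 1 library at a time gave between 24 DE miRNAs (without LP1) and 53 (without HP1), and 13 of the 39 were DE in all 6 of these fits. They were miR-379, miR-146b, miR-146a, miR-423-5p, miR-34a, miR-24-3p, miR-451, miR-425-3p, miR-411c-3p, miR-382, miR-11977, miR-2313-3p and miR-10162-5p. With all 12 libraries in 1 fit 11 of the 39 calls were lost (miR-146a, miR-451, miR-143, miR-144, miR-152, miR-185, miR-320a, miR-2478, miR-12030, miR-877 and miR-32). With a pseudocount of 5, which shrinks the fold changes of scarce miRNAs, 17 were lost (miR-11977, miR-2313-3p, miR-10162-5p, miR-382, miR-10164-3p, miR-11978, miR-320a, miR-190b, miR-1248, miR-655, miR-877, miR-487a, miR-12023, miR-452, miR-340, miR-485 and miR-32). A block for the replicate number ended the calls of miR-144, miR-655, miR-877, miR-487a, miR-340 and miR-32, and limma-voom on implied reads those of miR-143, miR-190b, miR-452, miR-485 and miR-32. miR-655 was lost without size factors, and miR-12023 and miR-32 without the trend. A mean under 10 TPM was found for 12 of the 39, against 159 of all 388.

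**Figure D1:**
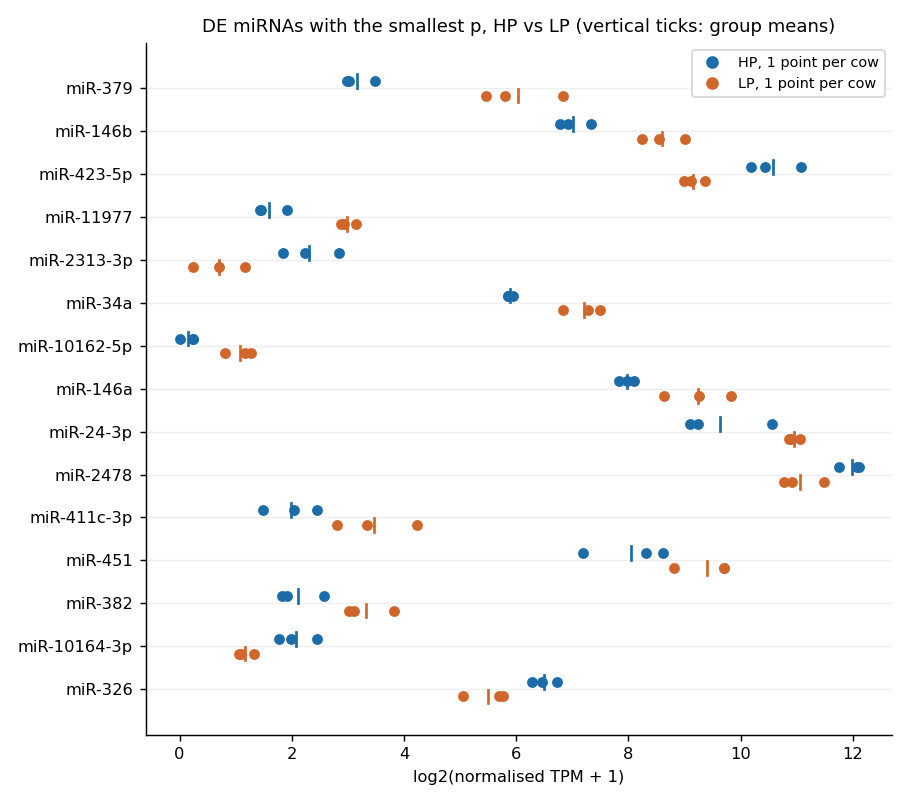
Level of the 15 DE miRNAs with the smallest p in each lactation library, on the axis log2(normalised TPM + 1), with 1 point per cow and a vertical tick at each group mean (n = 3). The points of HP and LP do not overlap for any of the 15, and miR-379 shows the widest gap, from at most 10.2 normalised TPM in HP to at least 43.0 in LP.

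miR-379 belongs to the miRNAs of the DLK1-DIO3 locus, an imprinted region whose noncoding transcripts, with a large array of miRNAs, are made from the maternal chromosome. Its level was 6.94, 7.07 and 10.2 normalised TPM in HP1, HP2 and HP3 and 112, 43.0 and 54.5 in LP1, LP2 and LP3. Every LP library lay above every HP library, and the log2 fold change was 2.86 ± 0.41 (SE, n = 3 per group; adjusted p = 0.0149, limma). It stayed DE in each of the 14 alternative fits, with a log2 fold change between 2.47 and 3.13 when 1 library was left out. Its adjusted p over the alternatives ranged from 0.0067 to 0.367.

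The other miRNAs of the locus did not follow miR-379 to this degree. Of 65 listed miRNAs of the locus 38 were measured, of which 24 had a positive log2 fold change, with a median of 0.24 against -0.01 for all miRNAs. In LP, 5 were DE and higher and 1 was DE and lower, against 5.93% and 4.12% of all miRNAs. The 8 that did not overlap between the groups were all higher in LP, against 10.3% of all miRNAs. These 8 include miR-1197, which entered the list after values were seen. A mean under 5 TPM was found for 15 of the 38.

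miR-382 was 2.77, 2.55 and 4.98 normalised TPM in HP and 7.13, 13.1 and 7.62 in LP, without overlap (log2 fold change 1.21 ± 0.36, adjusted p = 0.203, limma). miR-411c-3p was 3.12, 1.80 and 4.45 in HP and 17.7, 5.99 and 9.12 in LP, also without overlap (1.46 ± 0.43, adjusted p = 0.203, limma). Both were DE in every fit that left out 1 library. miR-655 was 16.1, 12.3 and 21.9 normalised TPM in HP and 36.3, 32.2 and 23.7 in LP (0.85 ± 0.35). miR-487a was 3.81, 1.72 and 2.31 in HP and 5.62, 7.62 and 3.50 in LP (0.85 ± 0.35). The groups overlapped for miR-487a and not for miR-655, and the call of each was lost in 4 of the 6 fits without 1 library. These were the fits without HP1, HP2, LP1 or LP2 for miR-655 (log2 fold change 0.66 to 1.05) and without HP2, HP3, LP1 or LP2 for miR-487a (0.62 to 1.103).

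The DE member of the opposite direction was miR-485, at 13.9, 9.87 and 4.27 normalised TPM in HP and 4.72, 5.21 and 1.25 in LP. The groups overlapped (log2 fold change -1.14 ± 0.50, adjusted p = 0.307, limma), and the call was lost without HP1, HP2, LP1 or LP3 (-1.56 to -0.67). miR-411a, the most abundant miRNA of the locus and the neighbour of miR-379, was 2160, 2264 and 2127 normalised TPM in HP and 3426, 2218 and 2386 in LP. Its groups overlapped and its log2 fold change was 0.27 ± 0.25 (adjusted p = 0.716, limma). In RefSeq (ARS-UCD2.0, used for neighbours only) 29 precursors, from miR-379 to miR-410, followed each other with at most 10 kb between neighbours. This run held 31 of the 38 measured miRNAs of the locus, and all 6 DE miRNAs of the locus fell in it. The separate run of 6 precursors that begins with miR-493 held no DE miRNA (log2 fold changes from -0.07 to 0.70). Since 10.1% of all miRNAs were DE, a run this short is not read as different.

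**Figure D2:**
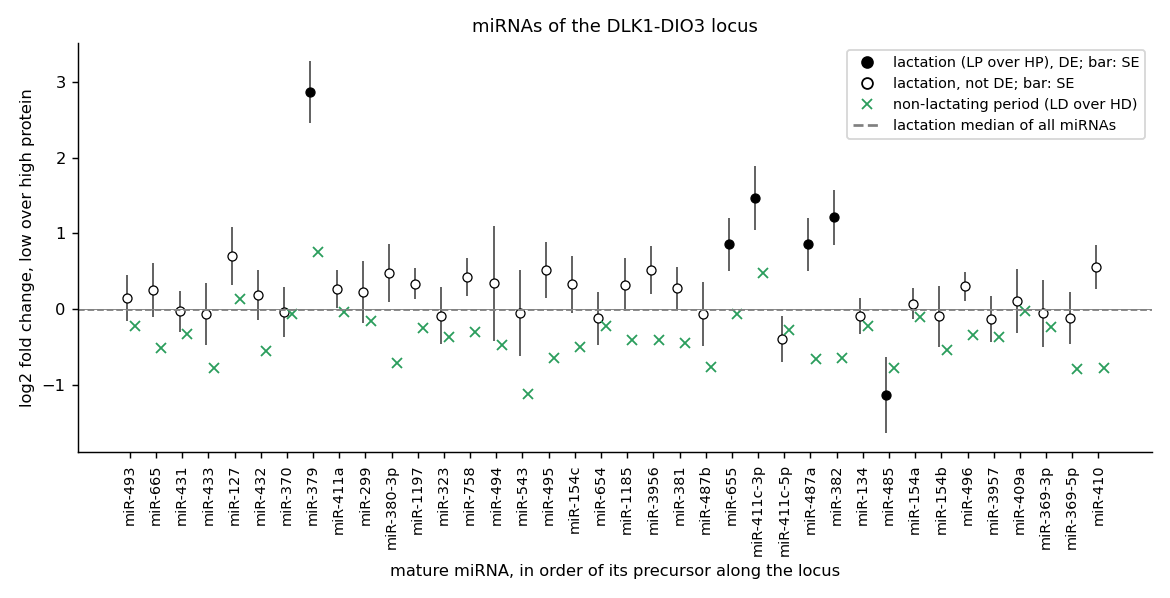
Log2 fold change of low over high milk protein for the 38 measured miRNAs of the DLK1-DIO3 locus, in the order of their precursors, with circles for lactation (filled where DE, bars SE, n = 3 per group), crosses for the non-lactating period and a dashed line at the lactation median of all miRNAs. miR-379 stands at 2.86, its neighbour miR-411a at 0.27, and 35 of the 38 crosses lie below 0. The median of all miRNAs in the non-lactating period is not drawn.

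In the non-lactating period the same 38 miRNAs had a median log2 fold change (LD over HD) of -0.37, and 3 of them were positive. The median and the share of positive values over all miRNAs are not given for this period. Other families in this period went both ways, with 6 of 6 miR-30 members positive (median 0.28) and 0 of 4 miR-181 members (median -0.49). Whether the values reflect a trait of the locus or a general shift was not tested. For single miRNAs the dependence on stage was 1.86 for miR-382 (adjusted p = 0.288, limma) and 1.52 for miR-487a (adjusted p = 0.782, limma), neither past the adjustment over all miRNAs.

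miR-146a and miR-146b share a seed, are encoded at separate sites and are induced by NF-kB, after which they restrain the Toll-like receptor adaptors IRAK1 and TRAF6. miR-146b was 160, 110 and 120 normalised TPM in HP and 514, 302 and 372 in LP. miR-146a was 226, 275 and 249 in HP and 905, 397 and 609 in LP. Neither overlapped between the groups. The log2 fold change was 1.59 ± 0.29 for miR-146b (adjusted p = 0.0583, limma) and 1.27 ± 0.32 for miR-146a (adjusted p = 0.124, limma). Over the alternatives the adjusted p of miR-146b ranged from 0.00916 to 0.367. The family sum was 369 to 386 normalised TPM in HP and 699 to 1420 in LP. Of the 5 leukocyte markers 1 was DE, miR-150, in the opposite direction, and their sum ranged from 6049 to 8984 normalised TPM in HP and from 5689 to 6916 in LP; their part in this result was not tested.

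miR-150, abundant in mature lymphocytes and known to act on MYB, was 2216, 1229 and 1127 normalised TPM in HP and 185, 1360 and 361 in LP. LP2 lay inside the HP range, while LP1 and LP3 lay far below it. The log2 fold change was -1.69 ± 0.61 (adjusted p = 0.251, limma), and the call was lost without HP1, LP1 or LP3 (range without 1 library -2.50 to -1.05). The other leukocyte miRNAs, miR-142-5p, miR-142-3p, miR-155 and miR-223, had log2 fold changes between -0.09 and 0.41.

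The family of miR-34 and miR-449 includes miR-34a, a transcriptional target of p53, and relatives best known from ciliated epithelia. Of its 6 listed members 4 were measured, and all 4 had a positive log2 fold change (median 0.67, against 187 of 388 positive miRNAs, 48.2%). miR-34a was 56.9, 56.6 and 60.8 normalised TPM in HP and 113, 155 and 179 in LP, without overlap (1.32 ± 0.28, adjusted p = 0.0599, limma). miR-449a was 1.91, 1.48 and 1.42 in HP and 5.08, 2.17 and 3.38 in LP, again without overlap, but close to the detection limit (0.76 ± 0.30, adjusted p = 0.272, limma). miR-34b (0.57 ± 0.33) and miR-34c (0.58 ± 0.38), which form a cluster of their own, were not DE.

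The cluster of miR-144 and miR-451 is the main erythroid cluster, and miR-451 is made without Dicer, by cleavage through Argonaute 2. Both were DE and higher in LP. miR-451 was 146, 318 and 393 normalised TPM in HP and 836, 448 and 830 in LP, without overlap (1.36 ± 0.40, adjusted p = 0.203, limma). miR-144 was 8.49, 25.6 and 14.4 in HP and 69.8, 15.2 and 89.5 in LP (1.58 ± 0.63, adjusted p = 0.272, limma). LP2 lay within the HP range for miR-144, and the call was lost without HP1, HP3, LP1 or LP3 (1.11 to 2.34) and with a block for the replicate number. miR-486, the other erythroid marker, was 662, 810 and 847 normalised TPM in HP and 1529, 519 and 870 in LP (0.20 ± 0.37, adjusted p = 0.873, limma), so LP1 alone stood well above HP. All 3 erythroid markers together summed to 816 to 1254 normalised TPM in HP and 983 to 2434 in LP.

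**Figure D3:**
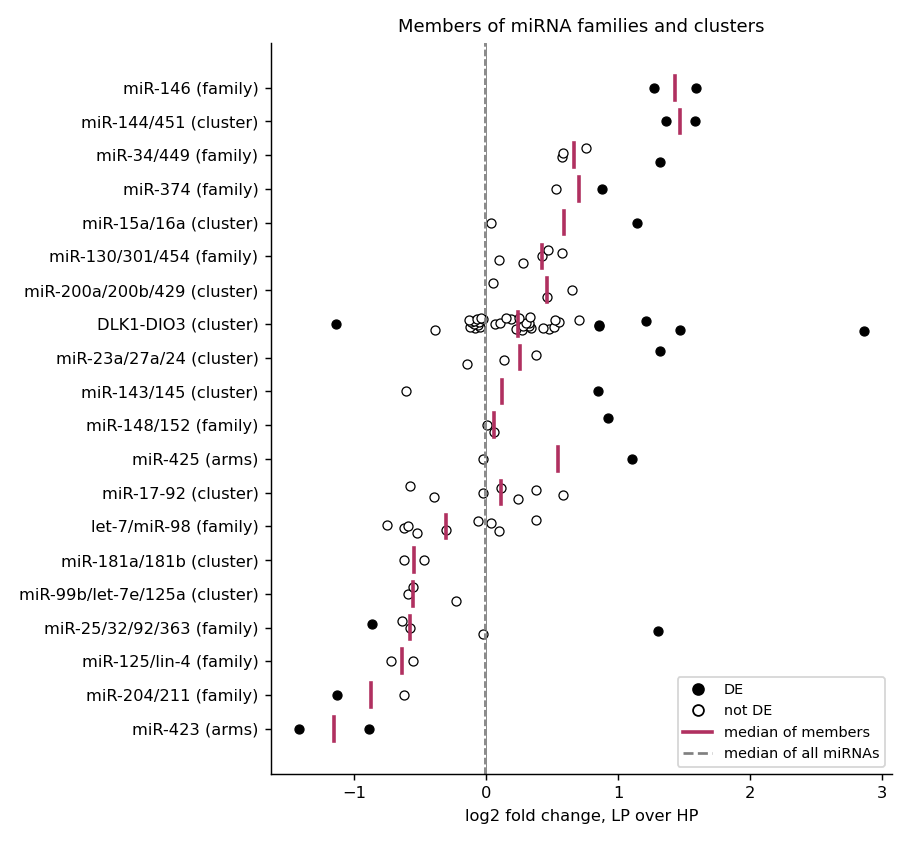
Log2 fold change (LP over HP) of each measured member of 20 families, clusters and arm pairs, filled where DE, with a bar at the median of the members and a dashed line at the median of all 388 miRNAs. Both members of the miR-146 family and of the cluster of miR-144 and miR-451 are DE and higher in LP, and both arms of miR-423 are DE and lower. Some of the other groups hold DE members beside members that are not DE, and the rest hold no DE member. The members that are not DE lie near 0 in some groups and away from it in others.

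Both arms of miR-423, whose precursor lies within NSRP1, were DE and lower in LP. miR-423-5p was 2164, 1389 and 1165 normalised TPM in HP and 656, 551 and 508 in LP (-1.42 ± 0.28, adjusted p = 0.0599, limma). miR-423-3p was 2631, 1210 and 1214 in HP and 794, 963 and 798 in LP (-0.89 ± 0.33, adjusted p = 0.251, limma). Neither arm overlapped between the groups. The 5p arm was DE in every fit without 1 library, and the 3p arm lost its call without HP1, LP1 or LP3 (-1.08 to -0.52). The log2 ratio of the 5p to the 3p arm within a library was -0.05 ± 0.24 (SD, n = 3) in HP and -0.58 ± 0.27 in LP, and these ratios overlapped.

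In several clusters 1 miRNA was DE while its partner from the same precursor or transcript was not. Ratios of 2 miRNAs within a library do not depend on the scaling between libraries, and they show unequal change, not which of the pair changed. They are given below as a description, without a test, and most pairs hold a miRNA that was picked as DE. Over all pairs computed, more overlapped between HP and LP than did not. Among those that overlapped were miR-143 over miR-145, miR-152 over miR-148a, miR-374a over miR-545-3p and miR-34a over miR-34c.

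miR-24-3p is encoded in both the miR-23a/27a/24 and the miR-23b/27b/24 cluster, so its reads cannot be assigned to one of them. It was 1502, 546 and 605 normalised TPM in HP and 2142, 1866 and 1910 in LP, without overlap (1.31 ± 0.37, adjusted p = 0.203, limma). Its 4 main neighbours stayed near 0, with -0.15 ± 0.23 for miR-23a, 0.13 ± 0.25 for miR-27a-3p, -0.20 for miR-23b-3p and 0.06 for miR-27b. The log2 ratio of miR-24-3p to miR-23a was 0.04, -1.19 and -1.10 in HP and 1.03, 0.40 and 0.72 in LP. For this neighbour, and likewise for miR-27a-3p and miR-23b-3p, all LP ratios were above all HP ratios, with HP1 the HP library nearest to LP. The ratio to miR-27b overlapped, at -3.73, -5.80 and -5.41 in HP and -3.91, -3.55 and -3.72 in LP.

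miR-16a and miR-15a share a seed and a cluster and are known to repress BCL2 and cyclins. miR-16a was 2976, 867 and 1029 normalised TPM in HP and 3440, 2799 and 2966 in LP, where HP1 lay within the LP range (1.14 ± 0.42, adjusted p = 0.251, limma). miR-15a was 1117, 856 and 871 in HP and 810, 1042 and 1067 in LP (0.04 ± 0.24, adjusted p = 0.964, limma). The log2 ratio of miR-16a to miR-15a was 1.41, 0.02 and 0.24 in HP and 2.09, 1.43 and 1.47 in LP, with HP1 just under the lowest LP library. The call of miR-16a was lost without HP2, HP3 or LP1 (0.81 to 1.69).

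HP1, the library with the fewest reads, stood with or near LP for some other miRNAs as well. miR-152, a relative of miR-148a that lies within COPZ2, was 504, 247 and 198 normalised TPM in HP and 583, 506 and 576 in LP (0.93 ± 0.34, adjusted p = 0.251, limma). Its call was lost without HP2, HP3, LP1 or LP3 (0.64 to 1.32). The other members of the family did not move with it, with 0.06 ± 0.35 for miR-148a, the most abundant miRNA of the tissue, and 0.01 for miR-148b. For miR-423-3p, miR-150 and let-7f, in contrast, HP1 was the HP library farthest from LP. Without HP1, 12 of the 39 DE calls were lost, while the number of miRNAs past the adjustment was 10. They were miR-24-3p, miR-16a, miR-379, miR-146b, miR-152, miR-2313-3p, miR-423-5p, miR-11977, miR-425-3p and miR-32, of which miR-24-3p reached a log2 fold change of 1.77 (adjusted p = 0.00358, limma, with a range from 0.00358 to 0.512 over its alternatives).

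miR-425-3p was 56.7, 30.1 and 27.4 normalised TPM in HP and 88.5, 60.7 and 91.1 in LP, without overlap (1.11 ± 0.36, adjusted p = 0.24, limma). The other arm, miR-425-5p, was 254, 136 and 179 in HP and 170, 196 and 175 in LP (-0.03 ± 0.29). The log2 ratio of the 3p to the 5p arm was -2.35 ± 0.31 (SD, n = 3) in HP and -1.19 ± 0.43 in LP, without overlap. For miR-411c the same ratio was -4.73 ± 0.52 in HP and -2.57 ± 1.151 in LP, also without overlap, since miR-411c-5p was 78.4, 69.9 and 84.8 normalised TPM in HP and 48.6, 80.7 and 51.9 in LP. In both pairs the minor arm was the one higher in LP.

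**Figure D4:**
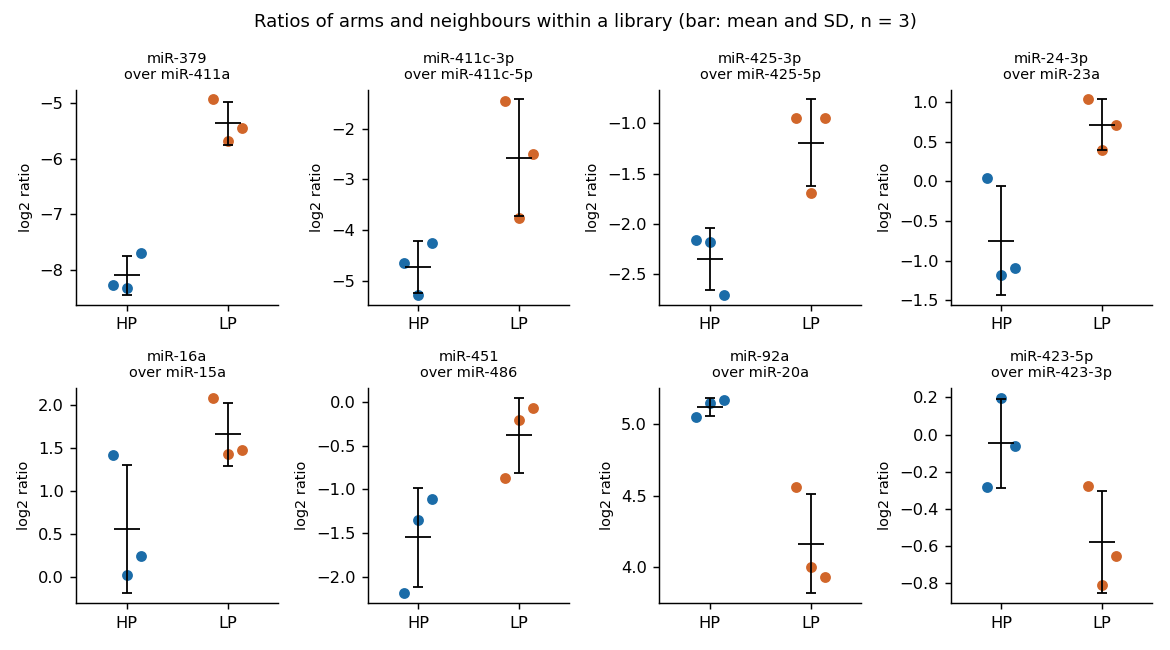
Log2 ratio of 8 pairs of arms, neighbours or markers within each library, with 1 point per cow and the mean ± SD of each group (n = 3); axes differ between panels. In these 8 pairs, chosen with earlier results known, HP and LP do not overlap except for miR-423-5p over miR-423-3p. The largest difference of means is that of miR-379 over miR-411a, -8.10 in HP against -5.36 in LP. Most of the computed pairs that are not drawn did overlap.

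The seed family of miR-25, miR-32, miR-92 and miR-363 held DE members of both directions. miR-92b was 102, 86.2 and 95.1 normalised TPM in HP and 65.3, 40.9 and 50.4 in LP, without overlap (-0.87 ± 0.29, adjusted p = 0.242, limma), and lost its call without LP2 (range without 1 library -1.04 to -0.72). miR-32, which lies within TMEM245, was 354, 126 and 71.0 in HP and 361.5, 207 and 643 in LP (1.30 ± 0.57, adjusted p = 0.307, limma). It overlapped between the groups and lost its call without HP2, HP3, LP1 or LP3 (0.78 to 1.93). Of the 8 other alternative settings it was DE in 3.

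miR-92a makes up most of the reads of this family. It is encoded in both the miR-17-92 and the miR-106a-363 cluster, so its reads cannot be assigned to one of them. Its level was 11116, 6892 and 7487 normalised TPM in HP and 5640, 5671 and 5428 in LP. The groups did not overlap, but its log2 fold change of -0.57 ± 0.26 (adjusted p = 0.315, limma) was below the limit for a DE miRNA. miR-20a of the miR-17-92 cluster was 0.38 ± 0.30. The log2 ratio of miR-92a to miR-20a was 5.12 ± 0.06 (SD, n = 3) in HP and 4.17 ± 0.35 in LP, without overlap. miR-363 (-0.64 ± 0.53) and miR-25 (-0.03 ± 0.24) were not DE.

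miR-143 and miR-145 are transcribed together and mark smooth muscle. miR-143, the second most abundant miRNA in these libraries, was 61135, 85082 and 66625 normalised TPM in HP and 142778, 126486 and 111729 in LP, without overlap (0.85 ± 0.27, adjusted p = 0.224, limma). It took on average 9.04% of the deposited TPM in HP and 15.1% in LP. miR-145 was 77.0, 4.61 and 8.80 in HP and 5.44, 31.0 and 4.87 in LP (-0.61, adjusted p = 0.858, limma), at a level far below that of miR-143 and with no order between the groups. The call of miR-143 was lost without HP1 or LP1 (0.75 to 0.99) and with limma-voom on implied reads. It was the 1 DE miRNA among the 10 most abundant, which together held 67.9% of the TPM.

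Other single members were DE in families whose remaining members were not. miR-374a was 217, 179 and 208 normalised TPM in HP and 517, 252 and 383 in LP (0.87 ± 0.30), without overlap, and was lost without HP2 or LP1 (0.63 to 1.14). Its relative miR-374b was 0.53 and the neighbouring miR-545 arms were at -0.09 and 0.02. miR-204, which lies within TRPM3, was 148, 98.4 and 111 in HP and 44.9, 92.7 and 36.1 in LP (-1.13 ± 0.38, adjusted p = 0.242, limma), and was lost without LP1 or LP3 (-1.53 to -0.85). Its relative miR-211 was 1.21, 0.907 and 1.60 in HP and 0.358, 0.619 and 0.376 in LP, without overlap but at a few reads per library (-0.62 ± 0.22, adjusted p = 0.251, limma).

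miR-320a and miR-877 do not need Drosha, since the first comes from a capped short transcript and the second is spliced from an intron of ABCF1. miR-320a was 111, 67.5 and 66.6 normalised TPM in HP and 46.6, 48.3 and 38.9 in LP (-0.83 ± 0.31), and lost its call without HP1 or LP3 (-0.95 to -0.58). miR-877 was 23.2, 13.9 and 12.3 in HP and 6.42, 11.7 and 6.37 in LP (-0.93 ± 0.38), and lost it without HP1, HP2, LP1 or LP3 (-1.195 to -0.67). Neither overlapped between the groups. miR-484, another miRNA of this kind that is named here after its values were seen, was 238 to 276 normalised TPM in all 6 libraries (-0.11, adjusted p = 0.896, limma).

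No member of the let-7/miR-98 family, whose maturation is blocked by LIN28 and which marks differentiated cells, was DE. Of its 9 members 6 had a negative log2 fold change (median -0.31). let-7f was 42428, 33211 and 17882 normalised TPM in HP and 16850, 16164 and 19423 in LP (-0.75 ± 0.33, adjusted p = 0.308, limma). HP3 lay within the LP range, and HP1 and HP2 lay above it. let-7d was 1766, 1300 and 1005 in HP and 800, 940 and 845 in LP, without overlap (-0.62 ± 0.27, adjusted p = 0.307, limma). The family sum was 98604, 74399 and 52280 normalised TPM in HP and 53654, 54026 and 53981 in LP, so that the LP cows were close together and the HP cows were not.

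Families with moderate, one-sided values also held no DE miRNA. miR-125a and miR-125b, the vertebrate lin-4 family, were -0.55 ± 0.24 (adjusted p = 0.307, limma) and -0.72 ± 0.26 (adjusted p = 0.251, limma), and neither overlapped. The family sum was 17982 to 24691 normalised TPM in HP and 12344 to 15411 in LP. All 5 members of the miR-130, miR-301 and miR-454 family were positive (0.10 to 0.58, median 0.42), and miR-301a was the one without overlap. miR-26b was 7860, 4958 and 5207 normalised TPM in HP and 10256, 8565 and 11220 in LP (0.76 ± 0.27, adjusted p = 0.251, limma), while the far more abundant miR-26a was 0.08 ± 0.27. miR-200b, which represses the mesenchymal factors ZEB1 and ZEB2, was 642, 420 and 570 in HP and 823, 866 and 834 in LP (0.65 ± 0.25, adjusted p = 0.251, limma). Its cluster partner miR-429 was 0.05 ± 0.23.

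The remaining DE miRNAs had no DE partner. Higher in LP were miR-185 (1.12 ± 0.38, within TANGO2), miR-452 (0.91 ± 0.39, within GABRE), miR-190b (0.88 ± 0.34), miR-1248 (1.06 ± 0.41), miR-11977 (1.39 ± 0.29) and miR-10162-5p (0.93 ± 0.21). miR-10162-5p was listed at 0 in HP2 and at 0.178 and 0.182 normalised TPM in HP1 and HP3, against 1.43, 1.24 and 0.753 in LP, so its HP values are below 3 reads. Lower in LP were miR-2478 (-0.92 ± 0.27), miR-326 (-0.98 ± 0.31, within ARRB1), miR-340 (-0.89 ± 0.39, within RNF130), miR-12030 (-0.99 ± 0.37), miR-12023 (-0.83 ± 0.34), miR-11978 (-0.95 ± 0.32), miR-2313-3p (-1.60 ± 0.34) and miR-10164-3p (-0.91 ± 0.27). miR-12023 was 0.867, 3.04 and 0.446 normalised TPM in HP and 0.358, 0.157 and 0.248 in LP, so its LP values rest on few reads. Calls were lost without HP2 or LP1 for miR-185 (0.89 to 1.39), without HP1, HP2, LP1 or LP3 for miR-452 (0.68 to 1.25), without HP1, HP3, LP1 or LP3 for miR-190b (0.54 to 1.18) and without HP3, LP2 or LP3 for miR-1248 (0.70 to 1.39). They were lost without HP1 or any LP library for miR-340 (-1.12 to -0.49), without HP2 or any LP library for miR-12023 (-1.13 to -0.39), without HP2, HP3, LP1 or LP2 for miR-12030 (-1.30 to -0.78) and without HP1 for miR-11978 (-0.78 at the smallest).

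Among those with the smallest p, miR-11977 was 2.77, 1.72 and 1.69 normalised TPM in HP and 6.60, 6.37 and 7.88 in LP. miR-2313-3p was 2.60, 3.70 and 6.13 in HP and 0.179, 0.619 and 1.25 in LP. Neither overlapped, and at these levels each LP value of miR-2313-3p rests on few reads. miR-2478 was 4336, 4391 and 3440 in HP and 1922, 1752 and 2871 in LP. miR-326 was 77.1, 105 and 86.8 in HP and 32.3, 50.9 and 53.2 in LP. miR-10164-3p was 2.42, 2.96 and 4.45 in HP and 1.51, 1.09 and 1.13 in LP. All 3 were without overlap, and each lost its call in 1 fit, without LP2 for miR-2478 (log2 fold change -0.79 at the smallest), LP1 for miR-326 (-0.76) and HP3 for miR-10164-3p (-0.72).

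By position, the 379 precursors matched in RefSeq formed 45 clusters of neighbours within 10 kb. DE miRNAs fell in 9 of them, and 2 held more than 1, the run that begins with miR-379 and the cluster of miR-144 and miR-451. Of the 39 DE miRNAs 14 were encoded in such clusters (35.9%), against 151 of the 385 miRNAs with a matched precursor (39.2%). In 23 of the 45 clusters all members had log2 fold changes of one sign. Many of the clusters hold only 2 miRNAs, which can share a sign without any link, and of all miRNAs 48.2% were positive. The share expected without a link was not computed, so this count is not read as shared control. A miRNA with several precursors can count in more than 1 cluster, which affects this count and that of clusters with DE miRNAs.

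The marker lists other than blood and smooth muscle held no DE miRNA, with 0 of 7 epithelial, 0 of 2 endothelial, 0 of 3 stromal and 0 of 3 skeletal muscle miRNAs. Over all miRNAs 10.1% were DE, so lists this short cannot show a lower share. The endothelial pair summed to 10753 to 16031 normalised TPM in HP and 14298 to 16005 in LP, and the stromal miRNAs to 8413 to 13409 in HP and 8030 to 10841 in LP. The skeletal muscle miRNAs summed to 109 to 257 in HP and 122 to 346 in LP. The liver marker miR-122 and the muscle marker miR-206 were not among the 388 miRNAs. The part of these cell types in the results was not tested.

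The difference between high and low protein cows in lactation was set against that in the non-lactating period. Of the 39 DE miRNAs 28 had the same sign in LD over HD, against 234 of all 388. The median absolute log2 fold change of the 39 was 1.06 in lactation, where they were chosen, and 0.23 in the non-lactating period. None of the 39 had an unadjusted p below 0.05 there (limma). The study reported DE miRNAs between HD and LD by its own count test, several shared with lactation, miR-146b and miR-185 included. The values used here did not reproduce that result. No miRNA passed the adjustment between HD and LD (lowest adjusted p = 0.935, limma), and miR-146b was 0.43 ± 0.73. Whether labels, values or method account for this was not tested, which limits every comparison of the stages here. The interaction of phenotype and stage, fitted over all 12 libraries, had an unadjusted p below 0.05 for 20 of 388 miRNAs (5.15%) and an adjusted p below 0.05 for 0. For miR-144 (2.18 ± 1.13), miR-451 (1.57 ± 1.2002) and miR-146a (1.00 ± 0.74) the non-lactating log2 fold changes were as large as or close to those in lactation, with wide errors.

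**Figure D5:**
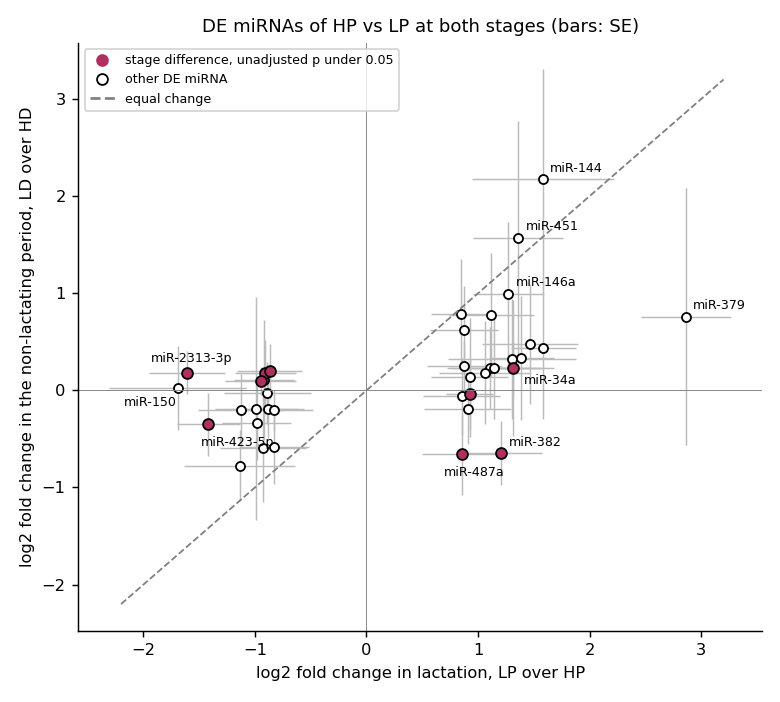
Log2 fold change of the 39 DE miRNAs in lactation (LP over HP, horizontal) and in the non-lactating period (LD over HD, vertical), with SE bars and a dashed line of equal change; filled points have an unadjusted p below 0.05 for the difference between the stages. Most points lie nearer to 0 on the vertical than on the horizontal axis, and miR-382 and miR-487a lie below 0 on the vertical axis.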

How the data were processed

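Small RNA libraries of 18 to 30 nt RNA were made from mammary biopsies. After trimming (Cutadapt 2.8, Trimmomatic 0.36), the authors used Bowtie 1.1.1 with up to 1 mismatch on the assembly ARS-UCD1.2 and counted miRBase 22.0 miRNAs by miRDeep2. They deposited RPM values, which they call TPM, rounded to 2 decimals, without length correction, for 426 entries. The authors tested counts with DESeq2; those counts were not used here. 0 columns were left unused.

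For each of 388 mature miRNAs the precursor entry with the highest mean was kept (36 had several). Libraries were scaled by median-of-ratios size factors, and log2(value + 1) was fitted over the 6 lactation libraries with limma 3.58.1 (R 4.3.3; empirical Bayes, mean-variance trend) and Benjamini-Hochberg adjustment. DE means an absolute log2 fold change over 0.8 with an unadjusted p under 0.05. Stage dependence was an interaction over 12 libraries. The fit was tested on simulated data. Implied reads were 6026620 to 13373813 per library. Named miRNAs are all DE miRNAs, members of the lists and the 10 most abundant; the lists, and the miRNAs shown in ratios, were chosen with earlier results of these data known. In the DLK1-DIO3 list miR-1197 replaced miR-6522 for its position in RefSeq, after values were seen. RefSeq ARS-UCD2.0 gave neighbours and host genes, without strand; mature sequences were not used here. Groups came from the labels, and p-values measure the spread between single cows. Alternatives were no size factors, pseudocounts of 0.1 and 5, a mean of at least 10 TPM, no trend, every precursor entry, all 12 libraries, the replicate number as a block, each library left out and limma-voom on implied reads.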

Additional observations from a re-analysis of the deposited data

Results flagged for a closer look

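For 9 of the 39 DE miRNAs the difference between low and high protein cows in lactation differed from that in the non-lactating period at an unadjusted p below 0.05 of the interaction test (limma), and none passed the adjustment over all 388 miRNAs. The 9 were chosen for their difference in lactation, which is part of this test. The non-lactating differences used here did not reproduce those that the study reported. The difference of log2 fold changes, lactation minus non-lactating period, was -1.78 for miR-2313-3p (adjusted p = 0.288, limma) and 1.86 for miR-382 (adjusted p = 0.288, limma). It was 1.103 for miR-34a and -1.02 for miR-11978 (adjusted p = 0.699 for both, limma). It was -1.05 for miR-92b, 1.52 for miR-487a, -1.08 for miR-10164-3p and -1.05 for miR-423-5p (adjusted p = 0.782 for these 4, limma), and 0.98 for miR-10162-5p (adjusted p = 0.807, limma).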

How the results depend on the processing

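The number of DE miRNAs was 39 and became 22 with a pseudocount of 5, and 24 to 53 with 1 library left out (24 without LP1, 53 without HP1). The other settings gave 28 to 51. The split of 23 higher to 16 lower in LP became 22 to 29 with limma-voom on implied reads, an alternative chosen after seeing the data, 16 to 17 without HP2 and 18 to 22 without HP3. The number past the adjustment was 1 and became 4 with a mean of at least 10 TPM (miR-379, miR-146b, miR-34a and miR-423-5p), 2 with all 12 libraries in 1 fit, 0 with the replicate block, and 0 to 10 with 1 library left out (0 without HP2, LP1 or LP3, 2 without LP2, 10 without HP1). The number with stage dependence at an unadjusted p below 0.05 was 20 and became 13 to 32 with 1 library left out (13 without HP2, 32 without HP1); none passed the adjustment in any setting. No DE miRNA changed sign in any of 534 refits, and 7 of the 39 were DE in every setting that could be fitted for them. The replicate numbers belong to different cows, and same-numbered libraries deviated with correlations of -0.26 to 0.01. With 3 libraries per group the deviations from a group mean constrain each other. These correlations therefore cannot show whether same-numbered libraries share more than a number. The block gave 34 DE miRNAs. The listed count tests (edgeR and DESeq2) were not run. All values of the lactation libraries were whole multiples of 1 read within the rounding tolerance, but 5 of these 6 libraries held only 75 to 96 values of up to 20 reads, too few for the stricter check set for a count test, so limma-voom stood in for it. With 3 cows per group and 6026620 reads in the shallowest library, miRNAs under about 1 TPM rest on few reads.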
